A study of Mus musculus with 25 samples.

Results

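Cox7b, Cox8a, Prdx3, Camk2n1, Mtap and Reep5, 6 of the 14103 genes in a single-cell RNA matrix of mouse testis germ cells, were followed by cluster and library. With earlier results of the same matrix known, they were chosen by their measured levels per cluster and library, which were lower from cluster to cluster in wild type (WT) and flat or high in the clusters of Ythdc2 knockout (KO) cells. Their levels by cluster and genotype are therefore a description and carry no test. The matrix holds 1 WT and 2 KO libraries of cells sorted for a 4N DNA content from mice at postnatal day 10 (P10), a content shared by dividing cells that have copied their DNA and by spermatocytes in meiotic prophase. The sample titles add the word embryo to P10, and the age label was followed. For the KO line the labels point to earlier work, and they name the hybrid background B6D2F1 (C57BL/6 and DBA/2) for further Ythdc2 mutant lines of the series, which were not analysed here. The matrix does not say which KO sample each KO library is, so the KO libraries are called KO A and KO B. With 1 WT library, genotype and library cannot be told apart, and the labels do not say whether the KO libraries came from separate animals, so any p-value below measures only the spread between these libraries.

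YTHDC2 is an RNA helicase that germ cells need to leave mitosis and enter meiosis. Cox7b and Cox8a encode small nuclear subunits of cytochrome c oxidase (complex IV), the last enzyme of the mitochondrial respiratory chain, and Prdx3 encodes the peroxiredoxin that removes hydrogen peroxide in the mitochondrial matrix. Mtap encodes methylthioadenosine phosphorylase, which recycles the by-product of polyamine synthesis into methionine. Camk2n1 encodes an inhibitor of calcium/calmodulin-dependent protein kinase II, and Reep5 a membrane protein that curves the tubules of the endoplasmic reticulum.

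The upstream stretches of 4 of the 6 genes, from RefSeq's promoter table, are shown because the transcripts share a pattern (Camk2n1 and Reep5 are not shown). Each line gives the 250 bases before the annotated start, read along the gene's own strand, with matches to searched motifs in capitals.
Cox7b: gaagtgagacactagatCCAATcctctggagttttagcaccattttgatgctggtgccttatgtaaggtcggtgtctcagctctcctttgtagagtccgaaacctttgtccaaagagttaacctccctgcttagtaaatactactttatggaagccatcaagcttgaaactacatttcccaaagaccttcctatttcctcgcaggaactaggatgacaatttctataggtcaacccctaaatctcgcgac
Cox8a: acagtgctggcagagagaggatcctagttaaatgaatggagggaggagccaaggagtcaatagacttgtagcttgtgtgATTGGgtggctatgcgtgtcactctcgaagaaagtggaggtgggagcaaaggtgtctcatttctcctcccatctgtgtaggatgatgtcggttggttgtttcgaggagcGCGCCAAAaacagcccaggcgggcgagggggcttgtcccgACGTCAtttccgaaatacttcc
Prdx3: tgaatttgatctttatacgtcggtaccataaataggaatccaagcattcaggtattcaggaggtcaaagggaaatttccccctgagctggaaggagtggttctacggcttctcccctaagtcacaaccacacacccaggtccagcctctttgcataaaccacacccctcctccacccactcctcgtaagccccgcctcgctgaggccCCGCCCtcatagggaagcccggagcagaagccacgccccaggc
Mtap: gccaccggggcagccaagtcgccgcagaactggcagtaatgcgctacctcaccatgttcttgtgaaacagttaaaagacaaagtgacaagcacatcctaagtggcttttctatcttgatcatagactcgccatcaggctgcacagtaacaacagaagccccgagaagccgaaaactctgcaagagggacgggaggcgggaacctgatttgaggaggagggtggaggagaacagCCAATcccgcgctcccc
In build GRCm38.p6, the Cox7b stretch is chrX:106015450-106015699 on the plus strand, the Cox8a stretch chr19:7217617-7217866 on the minus strand, the Prdx3 stretch chr19:60874539-60874788 on the minus strand and the Mtap stretch chr4:89137120-89137369 on the plus strand. The motifs, picked after the sequences had been seen and searched on both strands, were CCAAT, the GC box GGGCGG, the CRE half-site TGACGT, the ETS core CCGGAAG, the E-box CACGTG, the E2F site TTTNNCGC and the NRF1 consensus. CCAAT matched in 3 of the 4, at -233 in Cox7b, -171 in Cox8a and -17 in Mtap (counted back from the start), and it occurs in 33.8% of all 32851 promoters of that length. Cox8a also held the CRE half-site, at -22, and the E2F site, at -62, which occur in 6.47% and 4.28% of promoters. Prdx3 held the GC box at -43, as 32.7% of promoters do, and the ETS core, the E-box and the NRF1 consensus matched in 0 of the 4. No motif was common to the 4 stretches, and these matches describe letters only.

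The WT library held 1151 cells and the KO libraries 1522 and 1855, with 16342955, 18089957 and 25447581 unique molecular identifiers (UMIs, counted molecules) in all and a median of 9755.5 to 12826 UMIs per cell. The authors' cluster names were used, numbered here from 1 to 5 as Undiff_SGs (undifferentiated spermatogonia), Diff_SGs (differentiating spermatogonia), L_Z_SCs (leptotene-zygotene spermatocytes) and the mixed clusters Diff_L_Z_SGs1 and Diff_L_Z_SGs2. Cluster 3 held 427 WT cells and 0 KO cells, and clusters 4 and 5 together held 25 WT cells and all KO cells past cluster 2, so beyond cluster 2 the genotypes are compared across different clusters. The targeted gene, Ythdc2, was lower in KO in clusters 1, 2 and 4, which held 24 or more cells of each library. In cluster 1 the counting intervals of WT and both KO libraries overlapped. Ythdc2 stood at 37.7, 170.0, 266 and 271 CPM in WT clusters 1 to 4, at 25.7, 50.4, 61.5 and 35.3 CPM in clusters 1, 2, 4 and 5 of KO A and at 22.8, 44.2, 64.0 and 34.9 CPM in those of KO B, where CPM is the gene's UMIs per 1e+06 UMIs of all cells in the cluster. Summed markers of undifferentiated spermatogonia were 549 to 742 CPM in cluster 1 and at most 51.9 CPM elsewhere, and markers of leptotene-zygotene spermatocytes peaked in WT cluster 3 at 7499 CPM. Markers of differentiating spermatogonia did not single out cluster 2, where they summed to 1938, 2139 and 2141 CPM in WT, KO A and KO B. They were highest in WT cluster 3 (3782 CPM) and in cluster 5 of KO A and KO B (4578 and 4280 CPM).

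Cox7b was lower at each step in WT and higher past cluster 1 in KO. Levels are CPM of the UMIs summed over a library's cluster, with exact Poisson 95% intervals that cover counting error only. In WT, Cox7b stood at 128 CPM (95% interval 106 to 152) in cluster 1, 52.2 CPM (95% interval 47.7 to 56.9) in cluster 2 and 9.57 CPM (95% interval 7.15 to 12.5) in cluster 3. Its level was thus 13.3-fold (95% interval 9.57 to 18.8) lower in WT cluster 3 than in WT cluster 1. In KO A it stood at 126, 209.9, 239 and 228 CPM in clusters 1, 2, 4 and 5, and in KO B at 154, 213, 246 and 238 CPM. The KO libraries overlapped WT in cluster 1 and lay far above it in cluster 2, and within KO the order was cluster 1 lowest, then cluster 2, with clusters 4 and 5 overlapping in each library. Cluster 5 exceeded cluster 1 by 1.81-fold (95% interval 1.54 to 2.13) in KO A and 1.55-fold (95% interval 1.37 to 1.75) in KO B.

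Cox8a took a different course in KO: its level there was lower past cluster 1, but far less so than in WT. In WT it stood at 905 CPM (95% interval 846 to 968) in cluster 1, 159 CPM (95% interval 151 to 167) in cluster 2 and 51.2 CPM (95% interval 45.3 to 57.5) in cluster 3, a level 17.7-fold (95% interval 15.4 to 20.3) lower than in cluster 1. In KO A it stood at 898, 616, 623 and 562 CPM in clusters 1, 2, 4 and 5, and in KO B at 956, 653, 601 and 578 CPM. Cluster 5 lay 1.60-fold (95% interval 1.5 to 1.71) below cluster 1 in KO A and 1.66-fold (95% interval 1.57 to 1.75) below it in KO B. Most of that difference was already there in cluster 2, and the further step to cluster 5 was 1.10-fold (95% interval 1.05 to 1.15) in KO A and 1.13-fold (95% interval 1.09 to 1.17) in KO B, against 3.10-fold (95% interval 2.73 to 3.54) from cluster 2 to cluster 3 in WT.

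Prdx3, with few UMIs per cell, was held up in KO as well. In WT it stood at 27.2 CPM (95% interval 17.8 to 39.9) in cluster 1, 9.07 CPM (95% interval 7.28 to 11.2) in cluster 2 and 2.02 CPM (95% interval 1.01 to 3.62) in cluster 3, the last from 11 UMIs in 427 cells. In KO A it stood at 40.3, 32.7, 42.0 and 51.0 CPM in clusters 1, 2, 4 and 5, and in KO B at 35.0, 23.4, 39.3 and 46.1 CPM. Both KO libraries had their lowest level in cluster 2, still above the WT level there, and cluster 5 exceeded cluster 2 by 1.56-fold (95% interval 1.30 to 1.88) in KO A and 1.97-fold (95% interval 1.68 to 2.31) in KO B. Between clusters 1 and 5 the ratio was 1.26-fold (95% interval 0.944 to 1.72) in KO A, within counting error, and 1.32-fold (95% interval 1.02 to 1.73) in KO B, just beyond it.

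Mtap and Camk2n1 were no lower in cluster 2 than in cluster 1 in KO, and were lower after it. In WT, Mtap stood at 48.1 CPM (95% interval 35.2 to 64.2), 24.6 CPM (95% interval 21.6 to 28.0) and 6.26 CPM (95% interval 4.33 to 8.74) in clusters 1, 2 and 3. In KO A it stood at 44.0, 60.7, 32.4 and 31.5 CPM in clusters 1, 2, 4 and 5, and in KO B at 52.3, 59.9, 37.1 and 39.5 CPM. From cluster 2 to cluster 5 its level was 1.93-fold (95% interval 1.61 to 2.32) lower in KO A and 1.52-fold (95% interval 1.33 to 1.74) lower in KO B. The step from cluster 2 to cluster 3 in WT was larger, 3.94-fold (95% interval 2.74 to 5.82), and every KO level past cluster 1 lay above the WT level of cluster 2. In KO A, however, the intervals of clusters 4 and 5 (27.6 to 37.8 and 27.0 to 36.6 CPM) overlapped that of WT cluster 2.

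Camk2n1 showed the steepest difference of the 6 between WT clusters 1 and 3. It stood at 49.2 CPM (95% interval 36.1 to 65.4), 19.5 CPM (95% interval 16.8 to 22.5) and 1.29 CPM (95% interval 0.518 to 2.65) in WT clusters 1, 2 and 3, with only 7 UMIs left in cluster 3. In KO A it stood at 47.6, 52.7, 29.3 and 29.3 CPM in clusters 1, 2, 4 and 5, and in KO B at 46.7, 49.3, 29.7 and 32.8 CPM. Clusters 1 and 2 overlapped within each KO library, as did clusters 4 and 5, and cluster 5 was 1.80-fold (95% interval 1.48 to 2.18) lower than cluster 2 in KO A and 1.5-fold (95% interval 1.29 to 1.74) lower in KO B. For Mtap and Camk2n1 the KO cells thus showed a delayed and smaller drop rather than none.

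Reep5 did not follow the description by which the genes were chosen. Cluster 1 of WT, KO A and KO B stood at 191, 152 and 159 CPM, and cluster 2 at only 9.79, 27.1 and 20.7 CPM. The drop from cluster 1 to cluster 2 was 19.6-fold (95% interval 15.2 to 25.3) in WT, 5.63-fold (95% interval 4.58 to 6.95) in KO A and 7.71-fold (95% interval 6.49 to 9.17) in KO B, so KO cells did lose Reep5 at this step. WT cluster 3 and KO clusters 4 and 5 all stood above cluster 2 of their library, but by unlike amounts. WT cluster 3 stood at 26.3 CPM (95% interval 22.2 to 31.0), 2.69-fold (95% interval 2.06 to 3.52) above WT cluster 2. By contrast, KO clusters 4 and 5 stood at 196 and 257 CPM in KO A and 189 and 230.3 CPM in KO B. Reep5 in KO therefore dipped and came back to or above its cluster 1 level, a dip of a size that the other 5 genes did not show.

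**Figure D1:**
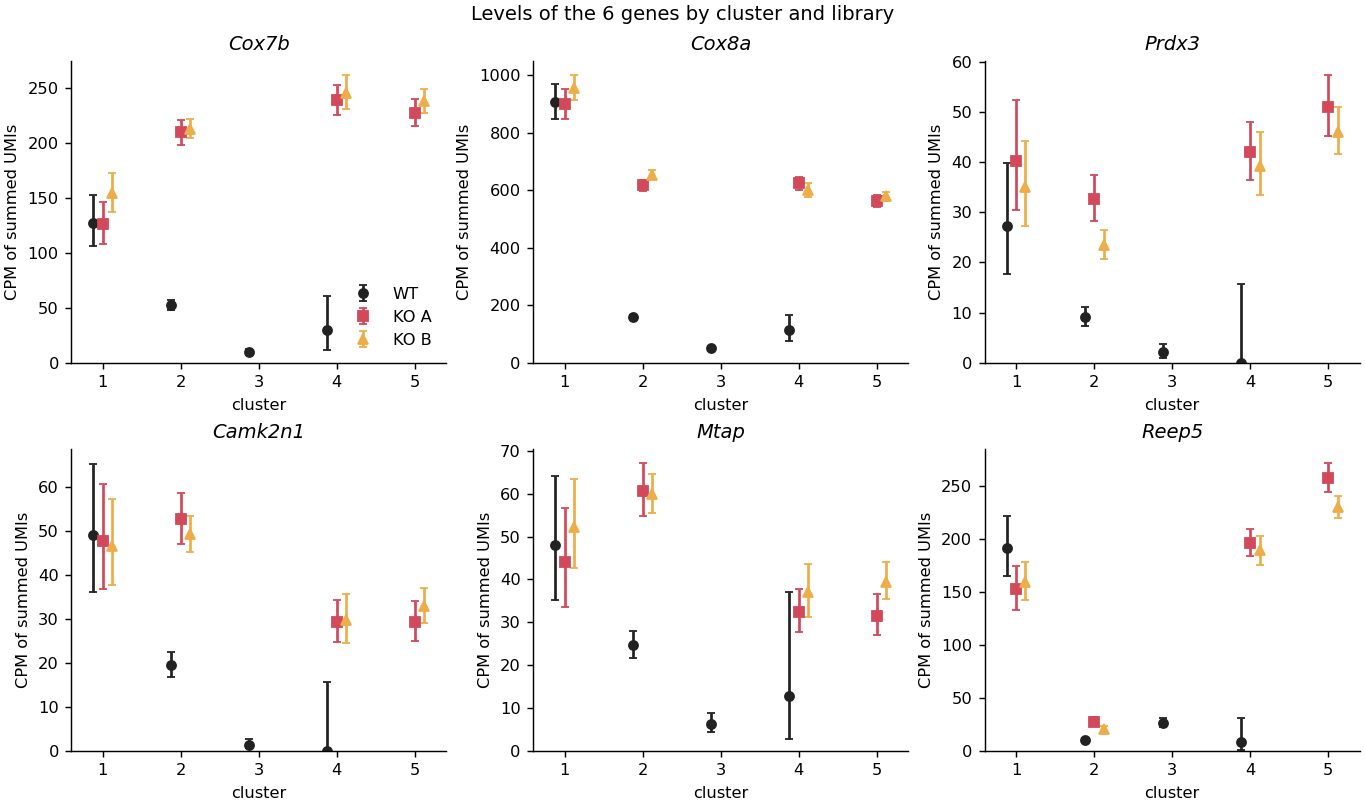
Level of each gene (CPM of summed UMIs, linear axis from 0) in clusters 1 to 5 of the WT, KO A and KO B libraries, with exact Poisson 95% intervals as bars. WT points are low from cluster 2 on, KO points stay high for 5 genes, and Reep5 is low in cluster 2 of every library and high in KO clusters 4 and 5.

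Set against WT on the authors' cell-scaled values (mean count per size factor and cell), the KO libraries were near WT in cluster 1 and above it from cluster 2 on. The sign of the small cluster 1 differences of Cox7b, Cox8a, Camk2n1 and Mtap turned in 2 of the 8 alternatives each, the scaling to CPM among them for all but Mtap. In cluster 1 the ratio of KO to WT was 0.960 for Cox7b, 0.936 for Cox8a, 1.23 for Prdx3, 1.05 for Camk2n1, 0.894 for Mtap and 0.646 for Reep5. Reep5 lay farthest from WT there, at 2.97 in WT and 1.92 ± 0.0693 (SD, n = 2) in KO, and the log2 difference of -0.63 was -0.30 when summed UMIs were scaled instead. Cluster 1 also held cells with smooth muscle and stromal transcripts: the 6 myoid genes of the marker list, all detected, summed to 2994, 1432 and 1694 CPM in WT, KO A and KO B. Without the 10, 10 and 13 cluster 1 cells that held at least 10 UMIs of such genes or globins, the Reep5 difference was -0.75.

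In cluster 2, Cox7b stood at 0.559 in WT and 2.19 ± 0.0461 (SD, n = 2) in KO (scaled UMIs per cell), a ratio of 3.92, and Cox8a at 1.76 in WT and 6.50 ± 0.289 (SD, n = 2) in KO, a ratio of 3.69. The ratios were 2.79 for Prdx3, 2.45 for Camk2n1, 2.30 for Mtap and 2.51 for Reep5. In each of the 6 both KO libraries lay above WT, and the spread between them was far smaller than the distance to WT except for Prdx3, where KO A stood at 0.314 and KO B at 0.230 against 0.0975 in WT. The median share of mitochondrial UMIs in cluster 2 was 5.68%, 9.79% and 7.03% in WT, KO A and KO B. Without cells above 10% the log2 differences ranged from 0.94 (Reep5, 1.25 with all cells) to 1.97 (Cox7b, 1.95 with all cells). Across clusters 3, 4 and 5 as 1 class, which is cluster 3 for nearly all WT cells and clusters 4 and 5 for KO cells, the log2 differences were 4.27 for Cox7b, 3.29 for Cox8a, 3.68 for Prdx3, 3.78 for Camk2n1, 2.11 for Mtap and 2.87 for Reep5. All 6 genes passed the minimum mean of 0.05 scaled UMIs in every class, but Prdx3 and Camk2n1 lay under it in WT for clusters 3, 4 and 5 and passed through their KO values.

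Cluster 4 is the one cluster past cluster 2 with more than 1 WT cell and cells of both KO libraries, with 24 WT cells and 592 and 441 KO cells. Its WT cells did not share the KO levels. Cox7b stood there at 29.7 CPM (95% interval 11.9 to 61.1) in WT against 239 (KO A) and 246 CPM (KO B), and Cox8a at 114 CPM (95% interval 75.4 to 166) against 623 and 601 CPM. Reep5 stood at 8.47 CPM (95% interval 1.03 to 30.6) in WT, from 2 UMIs, against 196 and 189 CPM. Prdx3 and Camk2n1 had 0 UMIs in these WT cells, which allows up to 12.7 CPM (3 UMIs), under the KO levels of 39.3 to 42.0 and 29.3 to 29.7 CPM. For Mtap the WT interval, 2.62 to 37.1 CPM from 3 UMIs, overlapped that of both KO libraries. Plk1, a mitotic kinase, had a like level in these cells of all 3 libraries (331 CPM in WT, 328 and 330.4 in KO A and KO B). Rad21l, a meiotic gene, stood at 42.4 CPM (95% interval 20.3 to 77.9) in WT against 21.7 and 19.3 CPM, with overlapping intervals. The median share of mitochondrial UMIs in cluster 4 was 12.3%, 10.4% and 9.02% in WT, KO A and KO B. Of the 24 WT cells, 4 were called doublets, and without them Cox7b stood at 30.7 CPM and Cox8a at 128 CPM.

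Cells were next placed by the share of their UMIs in 24 meiotic prophase genes, in 5 groups with cut points shared by the libraries (a division made after the data had been seen). These genes are themselves lower in KO, so a group does not match stage between genotypes, and the last group averaged 1.15% in WT against 0.852% (KO A) and 0.855% (KO B). Cox7b stood, from the first group to the last, at 85.3, 54.2, 56.0, 39.3 and 9.04 CPM in WT, 173, 222, 274, 229 and 198 in KO A and 186, 224, 272, 240.1 and 205 in KO B. Its KO level was highest in the middle group and above WT in all 5. Cox8a stood at 566, 197, 137, 103 and 51.4 CPM in WT. It stood at 715, 616, 646, 585 and 516 in KO A and 763, 654, 616, 582 and 544 in KO B. Its WT level dropped most between the first group and the next. The first WT group held nearly all WT cells of cluster 1, and the next held almost only cells of cluster 2. This drop was therefore not separated from the step between those clusters.

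Prdx3 had no drop along the KO groups: it ran from 30.2 to 43.0 CPM in KO A and from 25.2 to 38.7 in KO B, against 17.6 to 1.70 in WT. Mtap and Camk2n1 did drop in KO. Mtap stood at 56.8, 52.9, 39.9, 35.3 and 24.3 CPM in KO A and 61.0, 55.5, 51.3, 41.6 and 27.0 in KO B, against 46.9, 30.9, 19.2, 13.5 and 6.03 in WT, and Camk2n1 ran from 48.6 to 23.9 in KO A, from 49.5 to 26.0 in KO B and from 44.2 to 1.32 in WT. For both genes the KO libraries overlapped WT in the first group, which held a larger share of cluster 1 cells in WT, and lay above it in the later 4. Reep5 stood at 98.6, 7.02, 12.3, 14.7 and 26.0 CPM in WT, while KO A stood at 60.8, 57.5, 141, 217 and 320.1, with 56.4, 36.8, 127, 199.8 and 283 in KO B. In each library its level was lowest in the group after the first and climbed from there, but in KO A the intervals of these 2 groups overlapped. The last group lay below the first in WT and above it in KO.

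**Figure D2:**
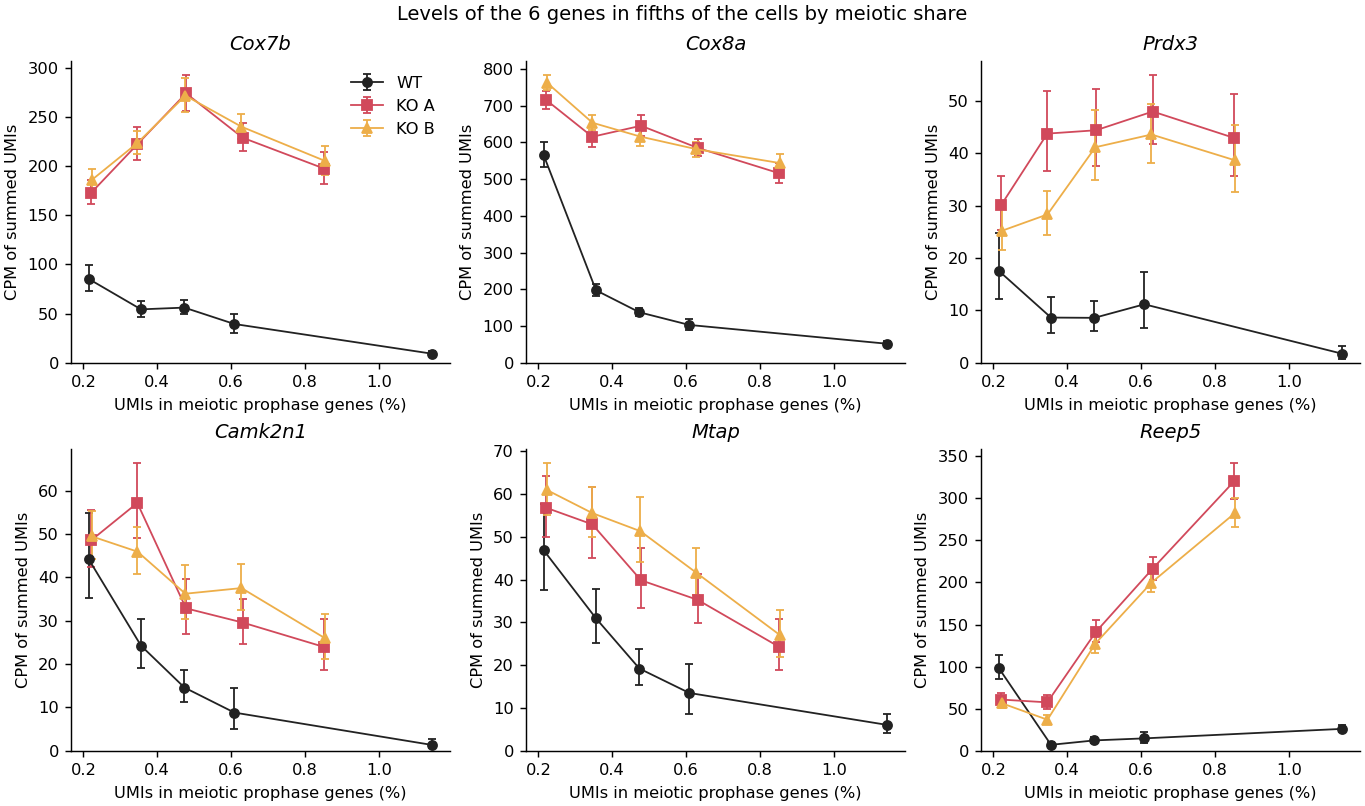
Level of each gene (CPM, with exact Poisson 95% intervals) in 5 groups of cells cut at the same meiotic shares in every library, placed on the x axis at the group's mean share of UMIs in meiotic prophase genes. Lines join the groups of a library: WT lines run low after the first group, Cox7b and Prdx3 stay level or higher in KO, Mtap and Camk2n1 drop in KO above the WT line, and Reep5 climbs in KO.

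Within cluster 2 alone, cells of each library were cut into 4 groups of like size by the same share (again after the data had been seen). In WT the 4 groups of 163 or 164 cells gave Cox8a 227, 169, 142 and 109.7 CPM, Mtap 39.0, 27.5, 20.6 and 14 CPM and Camk2n1 30.2, 22.3, 14.4 and 12.8 CPM, from the lowest meiotic share to the highest. These 3 genes were thus already dropping inside the WT cluster of differentiating spermatogonia. Cox7b was not, at 55.6, 48.7, 58.1 and 47.4 CPM, and nor was Prdx3, at 7.80, 8.68, 8.66 and 10.9, so their low WT level in cluster 2 was spread over the whole cluster. In KO cluster 2, Cox8a stood at 623, 629, 629 and 584 CPM in KO A and at 689, 670.1, 662 and 595 CPM in KO B, where the last group lay below the first beyond the counting intervals. Camk2n1 did not drop along the groups of either library (52.4, 45.1, 52.6 and 60.3 in KO A, with 50.5, 47.0, 49.9 and 49.8 in KO B), and no drop beyond the intervals was seen for Mtap between the first group and the last. Cox7b was higher in the last group than in the first in KO A (185, 187, 219 and 243), as was Prdx3 (21.7, 23.5, 38.3 and 44.6), while in KO B the intervals of both overlapped. Reep5 was higher in the last group than in the first in all 3 libraries, at 5.36, 6.79, 9.89 and 16.3 CPM in WT, and beyond the counting intervals in WT and KO B but not in KO A (12.4, 19.4, 24.2 and 25.8 in KO B, with 22.4, 20.9, 24.6 and 39.6 in KO A).

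Correlations among the 6 genes from cell to cell within a cluster were weak. Counts of most of the genes were sparse, which pulls r toward 0, so weak values do not show that the genes vary apart. Pearson's r between each of the 15 pairs was taken over cells of 1 library and cluster, in 8 groups of 335 to 814 cells. It used full counts without thinning, as the natural log of 1 plus count over size factor. Cells of a group share a library, and depth was not made equal between cells. The log of a cell's UMI total still correlated with a gene's scaled value at r up to 0.284. The 120 values had a median of 0.00780 and ran from -0.134 (Mtap with Reep5, cluster 5 of KO B) to 0.142 (Prdx3 with Reep5, WT cluster 2), with 6 above 0.1 and 2 below -0.1. Values of the same 6 genes with all other genes above 20 CPM had a central 95% that reached 0.0926 to 0.133, depending on the group. Cox7b and Cox8a, subunits of the same enzyme, gave 0.0269 in WT cluster 2 and 0.135 and 0.119 in cluster 5 of KO A and KO B, and values this weak in sparse counts are no finding.

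**Figure D3:**
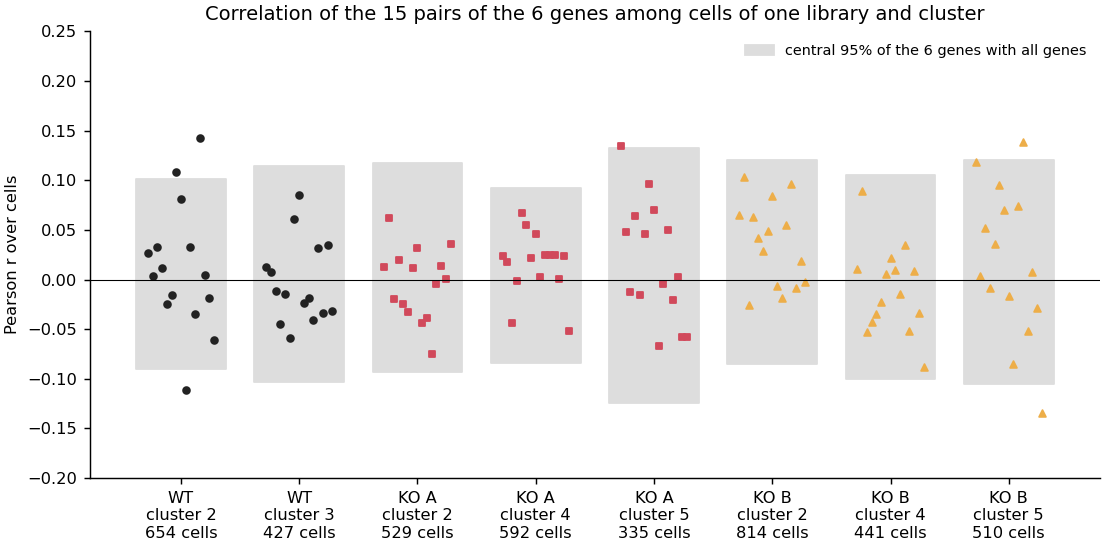
Pearson's r over cells for the 15 pairs of the 6 genes (points) in 8 groups of cells, each 1 library and 1 cluster. Values are the natural log of 1 plus count over size factor. Grey bars show the central 95% of the values of the 6 genes with all other genes. Points scatter around 0 and mostly lie inside the bars.

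With all clusters of a library pooled, the pairs had a median r of 0.129 over 1151 WT cells, up to 0.310 for Cox7b with Cox8a, and of 0.0193 and 0.0262 over the KO A and KO B cells. The pooled WT value carries the steps between clusters, which were all downward in WT for the genes other than Reep5, and the lowest pooled WT pair was Mtap with Reep5, at 0.0208. In both KO libraries the lowest pair was Mtap with Reep5, at -0.125 and -0.134. Past cluster 2 in KO, Mtap was lower and Reep5 higher, and Camk2n1 was lower too. Within single KO clusters the Mtap and Reep5 pair ran from -0.134 (cluster 5 of KO B) to 0.0362 (cluster 2 of KO A). What the pooled KO values reflect was not tested.

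Judged by variance, the spread of single genes over cells was close to counting noise for Cox7b, Prdx3, Camk2n1 and Mtap. Among profiles with at least 20 thinned UMIs, the variance of the thinned count divided by its mean ran from 0.965 to 1.17 for Cox7b, 0.960 to 1.16 for Prdx3, 1.02 to 1.21 for Camk2n1 and 0.933 to 1.12 for Mtap, where 1 is pure counting. It ran from 0.824 to 1.36 for Cox8a, with 1.28 over the 814 cells of cluster 2 in KO B, and from 0.949 to 1.69 for Reep5. In cluster 5 of KO B, 60.8% of cells kept a Reep5 UMI (exact binomial 95% interval 56.4 to 65.0%) where one level for all cells gives 69.5%, and in cluster 4 of KO A 54.7% did (50.6 to 58.8%) where one level gives 61.9%. In WT cluster 1, with 45 cells, the share of 55.6% had an interval with an upper bound of 70.4%, which held the one-level value of 69.9%, and so did the interval in KO A cluster 1. Cox7b also lay below the one-level value in cluster 4 of KO A, at 64.5% (60.5 to 68.4%) against 68.8%. Cox8a did so in cluster 2 of KO B, at 92.9% (90.9 to 94.5%) against 95.6%. Reep5 was thus spread beyond counting noise in some of the groups where it was high, and was not alone in this. None of the cell types sampled is known to lack Reep5, so no background share could be set beside these.

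For scale, genes with at least 20 CPM in WT cluster 1 were compared between clusters (thresholds set after the data had been seen). In WT, 1073 of 6863 such genes, 15.6%, were at least 4-fold lower in cluster 3 than in cluster 1, the 6 among them as their choice required. Of the 1073, 54.4% were also at least 4-fold lower in KO cluster 5 than in KO cluster 1 in both KO libraries, and 134, or 12.5%, stayed within a factor of 2 of their cluster 1 level or above it in both. The 6 belong to the 134. The median log2 difference of the 1073 was -3.38, -2.44 and -2.33 in WT, KO A and KO B, and Cox7b stood at -3.61, 0.85 and 0.62. Cox8a, Camk2n1 and Mtap were lower in KO cluster 5 than in cluster 1 as well, by less than 2-fold, and Cox7b and Reep5 were higher in both KO libraries.

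**Figure D4:**
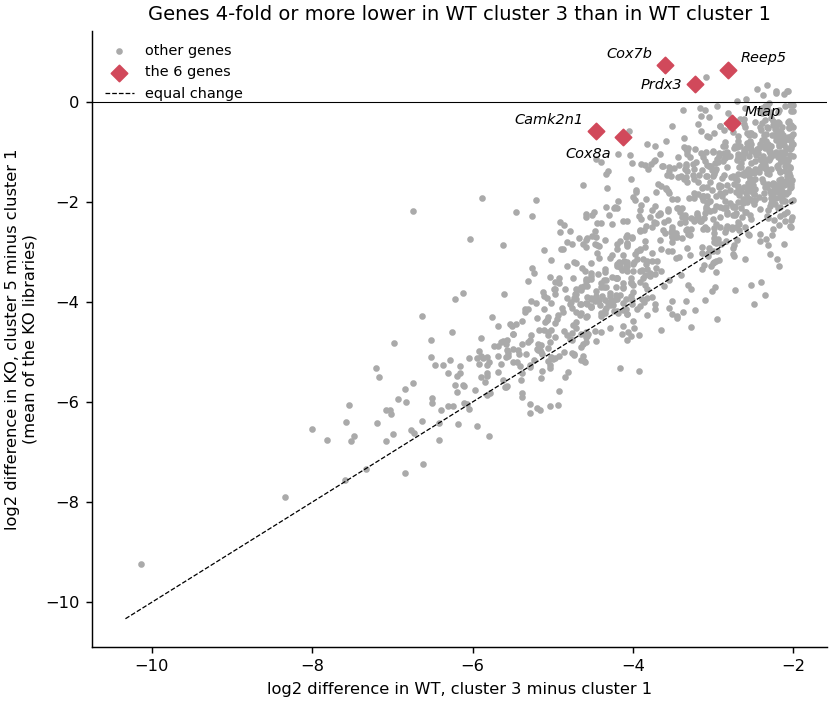
Log2 difference between cluster 5 and cluster 1 in KO (mean of both KO libraries) against that between cluster 3 and cluster 1 in WT, for the 1073 genes at least 4-fold lower in WT cluster 3. Most genes lie around or above the dashed line of equal change and well below 0, and the 6 genes lie near 0, with Cox7b, Prdx3 and Reep5 above it and Cox8a, Camk2n1 and Mtap below.

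Other genes of the same pathways were then tested, KO against WT, with limma (Benjamini-Hochberg adjusted over all genes). In cluster 1, 0.644% of 11180 genes were called higher in KO and 2.2% lower (2.84% in all) at an adjusted p under 0.05, and among the listed genes beside the 6 only Gpx1 (log2 -0.69) and Glrx (log2 -1.81), antioxidant enzymes named after their values were seen, were called, both lower. In cluster 2, 2.87% of 9435 genes were called higher in KO and 1.43% lower (4.3% in all). Higher calls were thus 66.7% of the calls in cluster 2 and 22.6% in cluster 1, and 56.2% and 47.5% with limma on TMM-scaled sums. Of the 12 other nuclear complex IV subunits tested there, limma called 0 (4 at an unadjusted p under 0.05), DESeq2 0 and edgeR 1, Cox8c. The median log2 difference of the 12 was -0.14, against 0.03 over all genes, beside 1.95 for Cox7b and 1.88 for Cox8a. Between WT clusters 1 and 3, 14 subunit genes had at least 20 CPM in WT cluster 1, and the other 12 had a median log2 difference of -0.45 (range -1.47 to 1.00). Cox4i1, a nuclear subunit, went from 1566 to 766 CPM and Cox5a from 566 to 1137 CPM over that step. The mitochondrially encoded subunits mt-Co1, mt-Co2 and mt-Co3 gave 0 calls of 3 in cluster 2, with limma (0 at an unadjusted p under 0.05), edgeR and DESeq2 alike.

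In clusters 3, 4 and 5, where 37.4% of 9299 genes were called higher and 29.1% lower (66.5% in all), 2 of the 13 other nuclear subunits were higher and 3 lower. Ndufa4 was higher (log2 0.66, limma adjusted p = 5.79e-07) and Cox7c lower (log2 -0.69, limma adjusted p = 2.37e-08). Cox6b2 was lower (log2 -0.57, DESeq2 adjusted p = 0.167), as was Cox7a1 at low counts (log2 -1.16). Cox6c, at log2 0.33, was not called by edgeR (adjusted p = 0.132), DESeq2 (0.232), limma on TMM-scaled sums (0.0923) or limma without the filter on low values (0.0508). Among complex IV assembly factors, 10 of 24 were higher and 6 lower in these clusters, led by Cox18 (log2 1.49) and Surf1 (1.43) on one side and Cox14 (-1.23) on the other. In cluster 2, where 4.3% of all genes were called, only Cox17, a copper chaperone for the enzyme, was called among the 24 (log2 0.57, limma adjusted p = 0.0393). Neither DESeq2 (adjusted p = 0.385) nor limma without the filter on low values (0.216) called it. DESeq2 called 4 assembly factors higher and 3 lower in clusters 3, 4 and 5. Cox7b and Cox8a were chosen for their levels, so their distance from the rest of the list is a description.

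Among 20 peroxiredoxin and thioredoxin genes tested beside Prdx3 in cluster 2, limma called 1, near the 4.3% of all genes called there. At an unadjusted p under 0.05 there were 10. No share over all genes was set beside this count or the unadjusted counts of the other lists. Txn1, the cytosolic thioredoxin, was higher in KO (log2 0.86, limma adjusted p = 0.00406, and 0.201 without the filter on low values). There edgeR called 3 higher and 3 lower (Txn1, Cat, Prdx1, Txnrd1, Gpx1 and Txn2), and DESeq2 called Txn1 and Prdx1. Txn1 stood at 138, 82.0 and 16.9 CPM in WT clusters 1, 2 and 3 and at 119, 158 and 118 in clusters 1, 2 and 5 of KO A, close to the course of the 6. Later, in clusters 3, 4 and 5, 6 of 19 were higher and 7 lower, about the share called over all genes (66.5%), and DESeq2 called 3 higher and 6 lower. Prdx6, another peroxiredoxin, was higher (log2 1.66), as were catalase, Cat (1.83), and Txn1 (2.44), and the superoxide dismutase of mitochondria, Sod2, was lower (-0.56). Prdx2, a cytosolic relative named after its values were seen, was low late in both genotypes, from 141 to 10.7 CPM between WT clusters 1 and 3 and from 125 to 23.3 CPM between clusters 1 and 5 of KO A.

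Around Mtap, limma called 0 of 14 other methionine salvage and polyamine genes in cluster 2 (1 at an unadjusted p under 0.05), DESeq2 called 0 and edgeR 1, Mat2a. In clusters 3, 4 and 5, 5 were higher and 2 lower, where 66.5% of all genes were called, and only 1 was higher with edgeR and with DESeq2 and 2 without the filter on low values. Odc1, which makes the first polyamine, was higher (log2 1.04), and Oaz1, its antizyme, lower (-0.67). Around Camk2n1, limma called 0 of 11 kinase and calmodulin genes in cluster 2 (3 at an unadjusted p under 0.05), DESeq2 0 and edgeR 2, Camk1d and Camk2d. In clusters 3, 4 and 5, 5 of 8 were higher and 1 lower, a share near the 66.5% of all genes called there (3 higher and 0 lower with DESeq2), with Camk2g, a kinase that Camk2n1 inhibits, at log2 2.16 and 7.73 CPM in WT cluster 3 against 34.6 and 33.6 CPM in cluster 5 of the KO libraries. Calm3, one of the calmodulin genes, was lower (log2 -0.26, DESeq2 adjusted p = 0.0547).

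Around Reep5, limma called 0 of 13 other genes that shape the endoplasmic reticulum in cluster 2 (2 at an unadjusted p under 0.05), DESeq2 0 and edgeR 1, Tmem33. In clusters 3, 4 and 5, 5 of 12 were higher and 4 lower, again near the share over all genes (66.5%), and DESeq2 called 3 higher and 3 lower. Reep4 was higher (log2 1.68), as were Ckap4 (1.63), a protein of endoplasmic reticulum sheets, and Reep3 (0.91, DESeq2 adjusted p = 0.0625), and the tubule-fusing atlastin Atl3 (-1.07) and the reticulon Rtn3 (-0.92) were lower. Of the meiotic prophase genes, 10 of 22 were lower in cluster 2, where 1.43% of all genes were, among them Stag3 (log2 -1.10), a cohesin subunit. DESeq2 called 5 of the 22, and limma without the filter on low values 0 (18 at an unadjusted p under 0.05). In clusters 3, 4 and 5, where 29.1% of all genes were lower, 23 of 24 were, and limma called Rec8 higher (log2 0.59, DESeq2 adjusted p = 0.117).

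**Figure D5:**
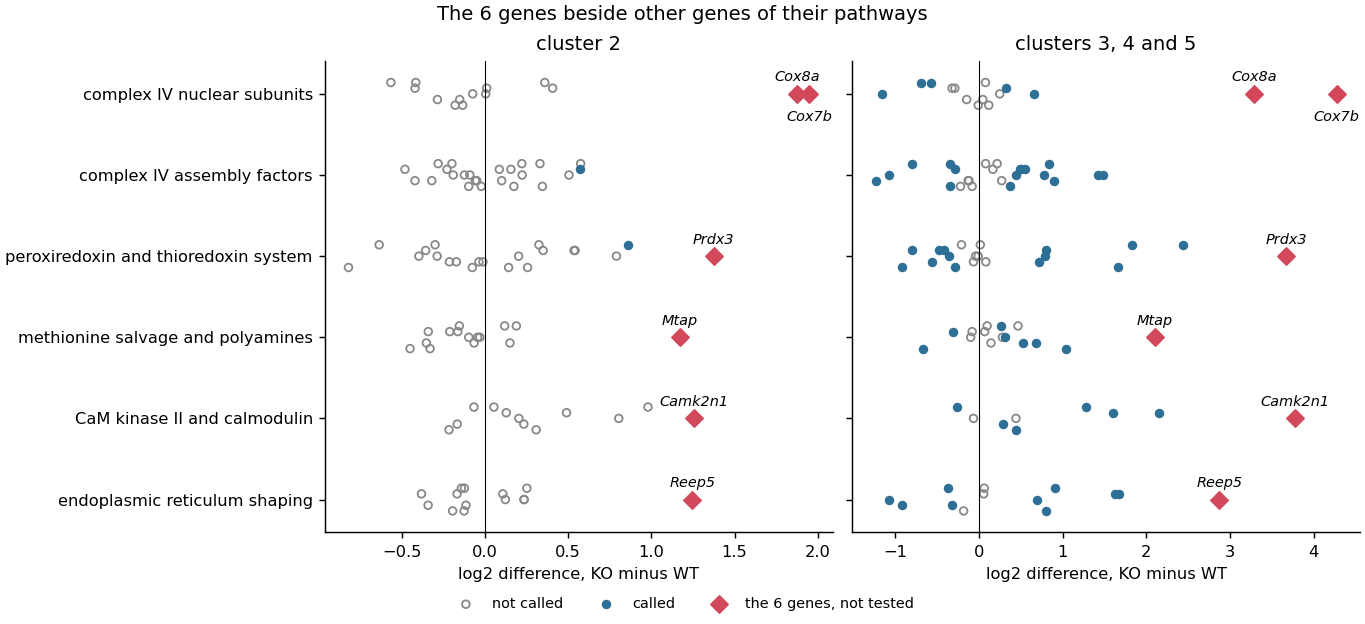
Log2 difference, KO minus WT, of the 6 genes (diamonds, not tested) and of the other genes of their pathways (circles, filled where limma called them), in cluster 2 and in clusters 3, 4 and 5. In each list that holds one of the 6, they lie farthest to the right.

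Genes with a like course were ranked over the 12 profiles of at least 20 cells (4 clusters in each of 3 libraries, so profiles share libraries), by Pearson's r of log2(CPM + 1) with the mean standardised profile of the 6. Of 6976 genes of at least 20 CPM on average, 58 had r above 0.9, and the 10 highest were Ndrg1 (0.986), Ssbp1 (0.985), Gnb4, Usp22, Rhoc, Ppp3r1, Mettl9, Mosmo, Fbxw11 and Ndufb10 (0.957). Ssbp1, which binds single-stranded mitochondrial DNA, stood at 276, 163 and 111 CPM in WT clusters 1, 2 and 3 and at 287, 236, 258 and 257 CPM in clusters 1, 2, 4 and 5 of KO A, a shallower course than that of the 6. Mif was most like Cox7b (0.971), Ssbp1 most like Cox8a (0.986), Fbxw11 most like Prdx3 (0.986), Cstb most like Camk2n1 (0.982) and Tmem50a most like Mtap (0.976). Among the 6 themselves r ran from 0.808 to 0.938 over the pairs without Reep5 and from 0.422 (with Mtap) to 0.769 (with Prdx3) over the pairs with it. Genes like Reep5 were others: Hbp1 (0.975), Ube2r2 (0.973) and Stx8 (0.953), and Ube2r2, a ubiquitin-conjugating enzyme, stood at 116, 9.69 and 24.1 CPM in WT clusters 1, 2 and 3 and at 127, 17.2, 92.7 and 89.9 CPM in clusters 1, 2, 4 and 5 of KO A.

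The 6 genes lie on 3 autosomes and the X chromosome, and nothing in their position was common to all. Cox7b is on the X chromosome (GRCm38.p6, chrX:106015700-106022450). Its log2 difference between WT clusters 3 and 2 was -2.33, where the median of 219 X-linked genes was -0.05 and that of 6090 autosomal genes -0.18. Cox8a (chr19:7215158-7217616) and Prdx3 (chr19:60864066-60874538) share chromosome 19, and Mtap (chr4:89137370-89181090) and Camk2n1 (chr4:138455148-138460126) share chromosome 4, far apart in both cases. The authors' deposited gene table carries a score for U-rich motifs, with no account of its calculation in the sources used here. The 6 had scores from 0.002 (Cox8a) to 0.019 (Prdx3), with 17.2% and 73.6% of the 14103 genes below them, around a median of 0.011.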

How the data were processed

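One WT and 2 KO single-cell libraries of P10 4N cells were used, and the bulk RNA-seq and iCLIP samples were not analysed here. Per the submitters' processing notes, the tools include Cell Ranger 3.0.2 and Scanpy, and builds mm10 and GRCm38 are named. The matrix deposited by the authors holds the natural log of 1 plus count over size factor. The authors' size factor is a score per cell, with no account of its estimation in the sources used here. The deposited cell table gives the UMI count and the mitochondrial fraction of each cell. Multiplying back gave whole counts for 100% of values above 0 (tolerance 0.001), holding 99.9% of the deposited UMI totals, and 0 cell barcodes were shared between libraries. UMIs were summed per library and cluster, and CPM, exact Poisson intervals, thinning to 5000 UMIs and Scrublet doublets (10, 4 and 9 called in WT, KO A and KO B) were computed from them in Python 3.11.15.

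KO was compared with WT by limma 3.58.1 with a mean-variance trend, on log2(mean count/size factor + 0.01), over genes with a mean of at least 0.05, at an adjusted p under 0.05. The deposited values being on a log scale, this test took the place of edgeR's count test, which was run as an alternative beside DESeq2, both on the summed counts. The limma step was checked on simulated data. The 6 genes, the pathway lists and the tests were chosen with earlier results of these data known. List genes were named as the called genes, up to 3 per direction, with the largest differences among those of at least 10 CPM. Doublets stayed in unless stated.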

Additional observations from a re-analysis of the deposited data

Results flagged for a closer look

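On the cell-scaled values, both KO libraries lay below WT in cluster 1 and above it later for Cox8a, Mtap and Reep5, and this difference between clusters was not tested. On CPM, KO B lay above WT in cluster 1 for Cox8a (956 against 905) and Mtap (52.3 against 48.1). For Cox8a and Mtap the cluster 1 sign turned in 2 of the 8 alternatives each. Cox8a had a log2 difference of -0.10 in cluster 1 against 1.88 in cluster 2 and 3.29 in clusters 3, 4 and 5. Mtap had -0.16 in cluster 1 against 1.17 and 2.11. Reep5 had -0.63 in cluster 1 against 1.25 and 2.87.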

How the results depend on the processing

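Counts of called genes depended on the method more than the 6 genes did. In cluster 1, 318 genes were called, and 0 without a filter on low values (1582 at an unadjusted p under 0.05), 77 with edgeR, 3 with DESeq2, 579 without called doublets and 153 without cells over 10% mitochondrial. In cluster 2, 406 were called, and 3 without the filter, 1412 with edgeR, 53 with DESeq2, 1446 with limma on TMM-scaled sums and 1400 without cells over 10% mitochondrial. In clusters 3, 4 and 5, 6183 were called, and 3602 with DESeq2, with the share of higher calls at 56.3% in limma and 47.8% in DESeq2. For the 6 genes, 36 differences were recomputed in 234 values: 8 changed sign, all in cluster 1 from log2 differences of -0.16 to 0.07, and 68 moved by more than the spread between KO libraries or, between clusters, the counting interval. In cluster 2 their KO minus WT log2 differences stayed between 0.83 and 2.06 in the 8 alternatives, leaving out either KO library among them, and in clusters 3, 4 and 5 between 1.37 and 4.39, lowest for Mtap, with Prdx3 and Camk2n1 at 2.10 and 1.84 under a pseudocount of 0.1. Of 319 values of named pathway genes under the alternatives, 24 were no longer called and 0 changed sign. Leaving out a KO library gives no count, since 1 library against 1 has no spread. No paired analysis was possible because the KO libraries cannot be tied to numbered samples and WT has 1 library. Depth limits Prdx3 and Camk2n1 in WT cluster 3, which rest on 11 and 7 UMIs.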
